A study of Capra hircus with 3 samples.

Results

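Cytosolic ribosomal proteins were taken as all probes for sheep genes whose array description holds "ribosomal protein", or whose gene name starts with RPL or RPS and a digit, with mitochondrial ribosomal proteins and ribosomal protein kinases left out. The rule found 52 probes, each with 1 spot per array, for 38 proteins, out of 15008 probes for 14363 gene identifiers. By name, 31 probes for 22 proteins were assigned to the large subunit and 21 probes for 16 proteins to the small subunit. The large subunit count includes RPL7L1, which acts in ribosome assembly. The skin came from 6 female Arbas Cashmere goats, all 2 years old. Under the short photoperiod, 3 goats grazed from 9:30 to 16:30 and were otherwise held in a dark shed of about 0.1 lux, which was 1 °C cooler than outside, and 3 goats lived under natural photoperiod. Each of 3 Agilent arrays, designed for sheep and read in a pair of dyes, held 1 goat of each group with the same parent, the short photoperiod in Cy5 and the natural photoperiod in Cy3. The dyes were never swapped, so that a difference between the dyes and a difference between the photoperiods cannot be told apart, and the titles call the natural group a long photoperiod. All values are log2 ratios of short over natural photoperiod, so 0 means no difference and 1 a doubling in the short photoperiod. In whole skin, more or fewer cells of a type and more or less RNA per cell cannot be told apart.

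Ribosomes translate messenger RNA. The small subunit reads the codons and the large subunit joins the amino acids, and each is a shell of proteins around ribosomal RNA. Nearly all cells carry the messenger RNAs of these proteins at high levels, and vertebrates make most of them from messages with a shared sequence element at their start, through which growth signals set how much of each is translated. Skin that grows hair makes large amounts of keratin, and the proliferating matrix cells of the follicle are rich in ribosomes.

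On these arrays the ribosomal protein spots were among the brightest. The median spot signal of the 52 probes was 107149, 126038 and 137409 in Cy5 on replicates 1, 2 and 3, and 29371, 25658 and 21296 in Cy3. Over all spots the median was 4587 to 7120 in Cy5 and 2688 to 3911 in Cy3. Of the 52 probes, 51 were well above background in Cy5 and in Cy3 on every array, and RPS15 was the exception. No spot was saturated. Feature Extraction, the scanner software, had marked 4, 12 and 12 ribosomal protein spots on replicates 1, 2 and 3 as outliers, each because its Cy3 pixels were not uniform. These marks fell on 17 of the 39 ribosomal protein probes in the brightest 10% of all probes, which is 43.6% of them, against 5.2% of the other 1462 probes of that brightness. Marked spots were left out of the test, which required 2 arrays, so that 44 of the 52 probes were tested. Their values with the marked spots kept are given beside the test, so that all 52 are accounted for.

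Most ribosomal protein probes had higher values in the short photoperiod, and none passed the test. The median log2 ratio over the probes was 0.22 on replicate 1 (48 probes), 0.54 on replicate 2 (40 probes) and 0.69 on replicate 3 (40 probes), a mean of 0.48 ± 0.24 (SD, n = 3 arrays). The median over all probes was 0.00 on each array. The probe means ran from -0.12 to 1.13, with 42 of 44 above 0 and 2 below. In limma, with p adjusted by Benjamini-Hochberg over all 14977 probes tested, 0 of 44 reached an adjusted p of 0.05, against a background of 0% of all tested probes higher and 0.00668% lower. The adjusted p of the 44 ran from 0.155 to 0.915. At an unadjusted p of 0.05, 22 of 44 passed, each of them higher in the short photoperiod, against 9.11% of all tested probes higher and 9.35% lower. At 2-fold or more, 2 of 44 were higher (background 0.427%) and 0 lower (background 0.414%). Of the 35 probes with a value on every array, 21 were above 0 on all 3 arrays and 1 was below, against 21.6% of all such probes above. With marked spots kept, 34 of 52 were above 0 on all 3 arrays, against 21.8% of all probes, and 29 of 52 reached an unadjusted p of 0.05, all of them higher, against 9.16% of all probes higher and 9.38% lower. In that fit too 0 of 52 had an adjusted p under 0.05, against 0% of all probes higher and 0.00666% lower. Each array is a pair of goats, so a spread over arrays is a spread over pairs of animals, and 3 pairs limit the precision. A fit of the 2 channels as separate samples with a correlation within spots called 5 of 35 probes (background 0.612%). Among them were RPL38, RPL34 (probe A_70_P026771), RPL11 and RPL4 (probe A_70_P001616), with adjusted p of 0.032, 0.039, 0.039 and 0.046 in that fit.

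**Figure D1:**
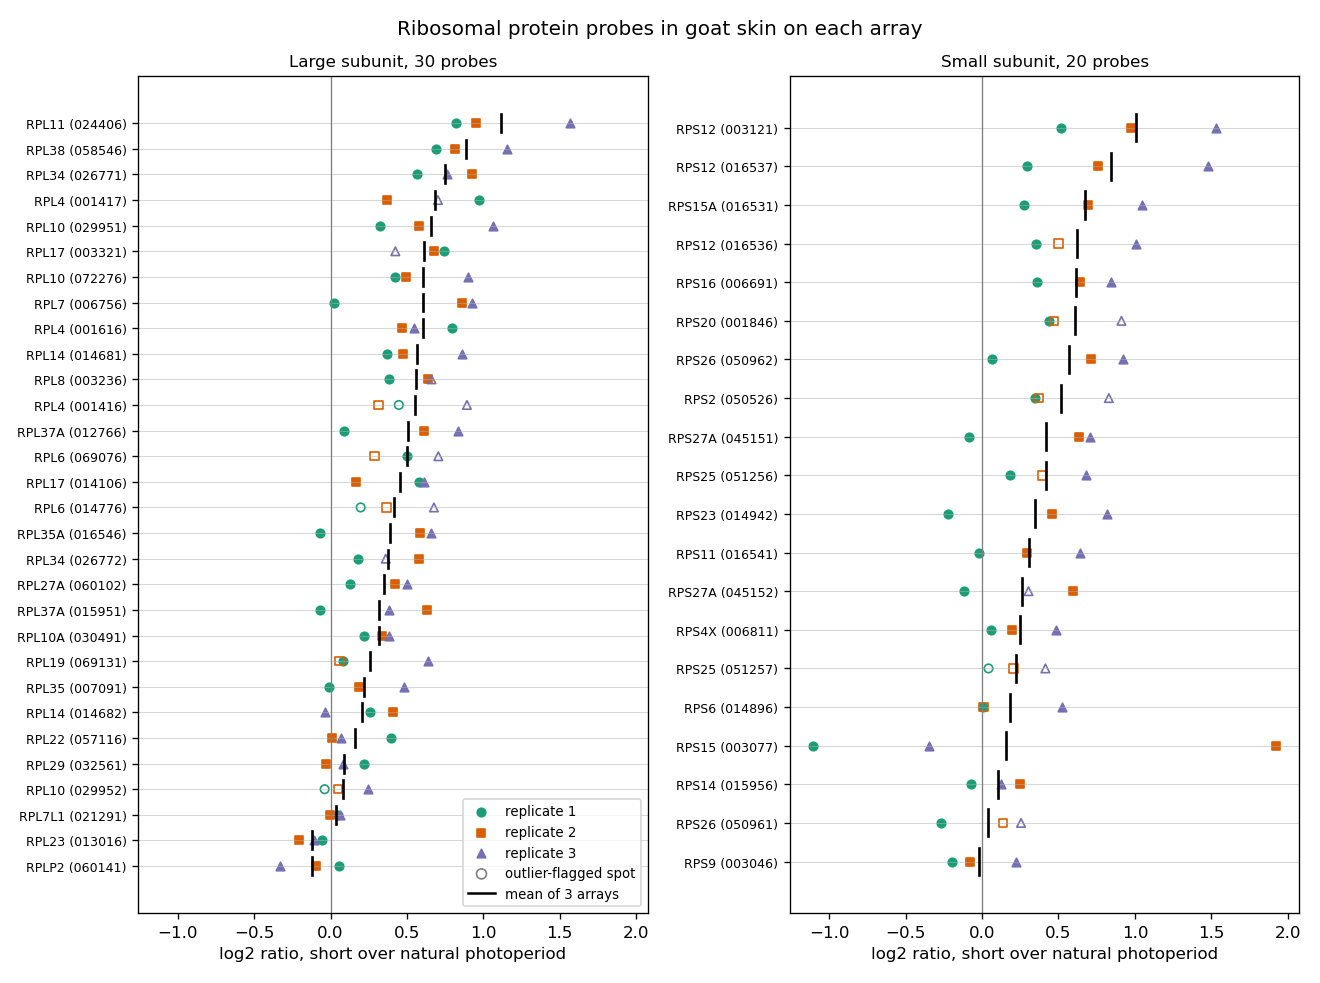
Log2 ratio of short over natural photoperiod (x axis) of 50 of the 52 ribosomal protein probes (y axis, protein with the last digits of the probe name), marked spots kept, with large subunit probes on the left and small subunit probes on the right. Symbols are the 3 arrays, open symbols are spots marked as outliers, and black bars are means of 3 arrays. Of the 50 means, 47 lie to the right of 0, and RPS15, the dimmest probe, has the widest spread.

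The large subunit held the highest probe. RPL11, which binds 5S ribosomal RNA together with RPL5 and can restrain MDM2, the ubiquitin ligase of p53, read 0.83, 0.96 and 1.59 on the 3 arrays in that order. Its mean was 1.13 ± 0.41 (SD, n = 3), 2.19-fold higher in the short photoperiod, with an adjusted p of 0.155 by limma. Its Cy5 signal was 115309, 124282 and 122924 and its Cy3 signal 23267, 21311 and 13789. The Cy3 signal was thus lowest on the array with the highest ratio, while the Cy5 signal stayed within a narrow range.

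RPL38, a small surface protein whose loss alters the skeleton of mice, stood at 0.69, 0.83 and 1.19, with a mean of 0.90 ± 0.26 and an adjusted p of 0.155. RPL34 had a pair of probes. The one on an assembled transcript (A_70_P026771) read 0.57, 0.95 and 0.83 with a mean of 0.78 ± 0.19, and the other (A_70_P026772) read 0.19 and 0.60 on replicates 1 and 2, with its replicate 3 spot marked. For RPL4, which lines the tunnel through which the new chain leaves, the probe on an expressed sequence tag (A_70_P001616) read 0.79, 0.47 and 0.57, with a mean of 0.61 ± 0.17 and an adjusted p of 0.155. A second RPL4 probe (A_70_P001417) read 0.98 and 0.40 on replicates 1 and 2, and the last (A_70_P001416) had its spot marked on every array. With marked spots kept the last read 0.45, 0.31 and 0.89. The means of the 3 probes of RPL4 were then 0.55 to 0.68, and these means differed by less than the spread between arrays. On single arrays the probes lay further apart, from 0.45 to 0.97 on replicate 1 and from 0.55 to 0.89 on replicate 3.

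Several large subunit probes with means below the subunit's median of 0.41 were dimmer than most. RPLP2, an acidic protein of the stalk that brings elongation factors to the ribosome, read 0.06, -0.10 and -0.33, with a mean of -0.12 ± 0.20 and an adjusted p of 0.600. RPL23, which lies at the face where the subunits meet, read -0.05, -0.21 and -0.11, with a mean of -0.12 ± 0.08 and an adjusted p of 0.540, and was the single probe below 0 on every array. RPL29, a small basic protein of the large subunit, read 0.22, -0.03 and 0.08. RPL7L1, a relative of RPL7 that acts in ribosome assembly, read 0.05, -0.00 and 0.06, the narrowest spread among these. RPL22, which mice can lose with a defect mainly in T cells, read 0.39, 0.01 and 0.07. RPL10A, part of the stalk beside the site where spent transfer RNA leaves, read 0.22, 0.34 and 0.39, with a mean of 0.31 ± 0.08. Apart from RPL7L1, with a mean log2 intensity of 14.40, each of these 6 probes had one of 8.37 to 12.05, against a median of 15.57 over the large subunit. Other low probes were bright, such as RPL14 (A_70_P014682), with a mean of 0.24 at a log2 intensity of 15.92. With marked spots kept, RPL10 (A_70_P029952) had a mean of 0.08 at 16.44.

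In the small subunit RPS12, a protein of the subunit's head, had the highest values. Its probe on an assembled transcript (A_70_P003121) read 0.52, 0.99 and 1.56, with a mean of 1.03 ± 0.52, 2.04-fold higher, and an adjusted p of 0.162. The pair on the sheep RPS12 record read 0.30, 0.78 and 1.53 (A_70_P016537), and 0.36 and 1.10 on replicates 1 and 3 (A_70_P016536). All RPS12 probes were highest on replicate 3 and lowest on replicate 1.

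RPS6, the protein that S6 kinases phosphorylate when growth signals are on, read 0.02 and 0.60 on replicates 1 and 3, with a mean of 0.31 ± 0.41 and an adjusted p of 0.457. With its marked spot kept, replicate 2 read 0.01, so that 2 of 3 arrays were close to 0. RPS14, which helps form the platform of the small subunit, read -0.07, 0.26 and 0.15, and RPS4X, the X-linked copy of RPS4, read 0.06, 0.20 and 0.49. RPS9, which lies near the site where messenger RNA enters, was the brightest probe, and read -0.19, -0.04 and 0.32 with a mean of 0.03 ± 0.26. RPS15, a protein of the subunit's head, was the dimmest, with Cy5 signals of 92.0 to 604 and Cy3 signals of 95.7 to 213. It read -1.11, 1.93 and -0.35, and was well above background in both channels on 2 of 3 arrays, so its mean of 0.16 ± 1.58 has no direction.

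The 24 probes outside the naming rule, 16 of the large and 8 of the small subunit, had means of 0.21 to 0.75 with marked spots kept, with a median of 0.44. The rule had taken out the highest and lowest probes by mean. This range and the counts above 0 therefore follow in part from that choice. Of the 24, 18 were above 0 on all 3 arrays, against 21.8% of all probes. There were 5 below 0 on replicate 1, and 1 was below 0 on replicate 2 or 3. RPS23, a protein of the decoding centre, had the lowest replicate 1 value of them, and read -0.22, 0.46 and 0.82. RPL7, a large subunit protein that binds RNA, read 0.02, 0.86 and 0.93. Both were thus near or below 0 on replicate 1 and well above it on the other two.

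The proteins of both subunits had positive medians on every array, and which subunit was higher differed between arrays. On replicate 1 the large subunit's median was 0.26 and the small subunit's 0.07. On replicate 2 they were 0.48 and 0.63, and on replicate 3 0.55 and 0.78. The large subunit was therefore 0.20 higher on replicate 1, and its median was lower on the other two, with differences of -0.15 and -0.22. The mean difference was -0.06 ± 0.22 (SD, n = 3), smaller than its spread, and its sign turned with marked spots kept (0.01 ± 0.16). Of 27 tested large subunit probes, 15 passed an unadjusted p of 0.05, and of 17 small subunit probes, 7, all of them higher, against 9.11% of all tested probes higher. On replicate 1, 13 of 21 small subunit probes were above 0 with marked spots kept, against 26 of 31 of the large subunit, whereas on replicate 3 the counts were 20 of 21 and 28 of 31. The median over all probes was 0.0002 on replicate 1 and -0.005 on replicate 3, so all probes split nearly evenly around 0. The 13 of 21 is not far from such a split. With 3 arrays a two-sided sign test cannot give a p under 0.25, so no test of this difference was made.

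**Figure D2:**
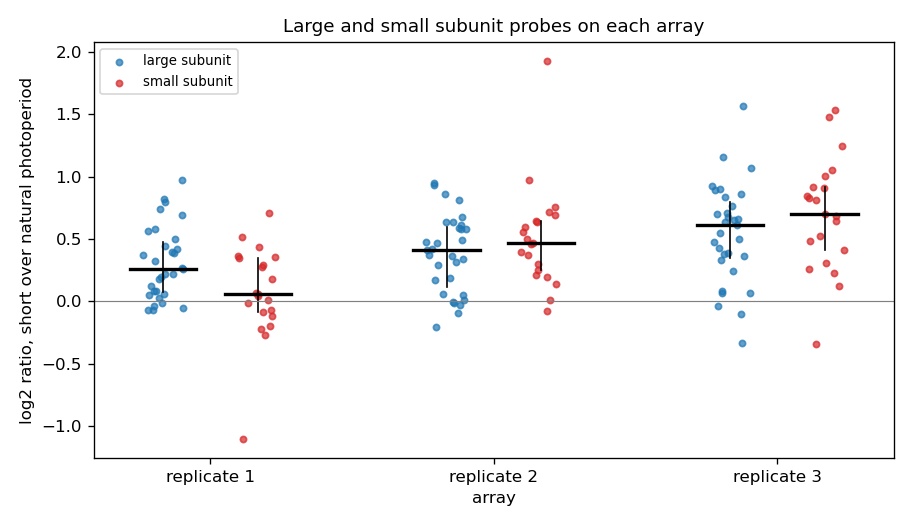
Log2 ratio of short over natural photoperiod (y axis) of each ribosomal protein probe on the 3 arrays (x axis), marked spots kept, 31 large subunit probes in blue and 21 small subunit probes in red. Thick lines are medians and thin lines span the quartiles. The large subunit median is the higher one on replicate 1 (0.26 against 0.06) and the lower one on replicates 2 and 3.

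Because these probes were bright, the ratio was set against intensity. Of the 52 probes, 39 were in the brightest 10% of all probes. After loess, which removes the trend of the ratio with intensity over all probes of an array, the slope of the ratio on log2 intensity among the ribosomal protein probes was 0.06, 0.01 and 0.13 per unit on replicates 1, 2 and 3. With each array only centred on its median, the slope was 0.22, 0.19 and 0.31, and the medians over the probes became 0.92, 1.24 and 1.50. Without loess the median was thus higher on every array. Under median centring 31 of 44 probes had an adjusted p under 0.05 by limma, all of them higher, against 6.77% of all tested probes higher and 5.78% lower, and 29 of 44 were at least 2-fold higher, against 1.96%. With marked spots kept as well, 40 of 52 were called, all higher, against 7.01% of all probes higher and 5.85% lower, and 38 of 52 were at least 2-fold higher, against 2.1%. The count called thus turns on the scaling.

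Among bright probes, ribosomal proteins lay above other probes of like brightness under both scalings. In the brightest 10%, with marked spots kept, the median of their means was 0.55 after loess, against -0.03 for the other 1462 probes. All 39 were above the median of those other probes, and 23 were above their 90th percentile. With median centring the medians were 1.42 and 0.55, and again all 39 were above the other probes' median, 33 of them above the 90th percentile. That step ran from a log2 intensity of 14.72 to 17.09, so brightness differed within it too. In narrower steps all were again above the other probes' median. After loess, 3 of 4 were above the 90th percentile from 15 to 15.5, and 5 of 17 from 15.5 to 16. From 16 to 16.5 it was 5 of 13, and above 16.5 it was 2 of 5. With median centring these counts were 3, 7, 6 and 1. Between log2 intensities of 15.5 and 16, the 17 ribosomal protein probes read 0.28, 0.59 and 0.90 on replicates 1, 2 and 3 in the median after loess, and the 284 other probes 0.08, 0.04 and 0.13. Above 16.5 the 5 ribosomal protein probes had a median of 0.18 and the 14 other probes -0.19. The other bright probes include keratins and the elongation factor EEF1A1, so they are no set of unchanged genes. The 8 ribosomal protein probes of log2 intensity under 13 had a median of 0.16, with -0.00 for the 9461 other probes, and 6 of the 8 were above 0. The 2 others, RPLP2 and RPL23, had a median of -0.12, against -0.00 for the 1499 other probes of their 10% step, and with median centring -0.15 against -0.04.

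**Figure D3:**
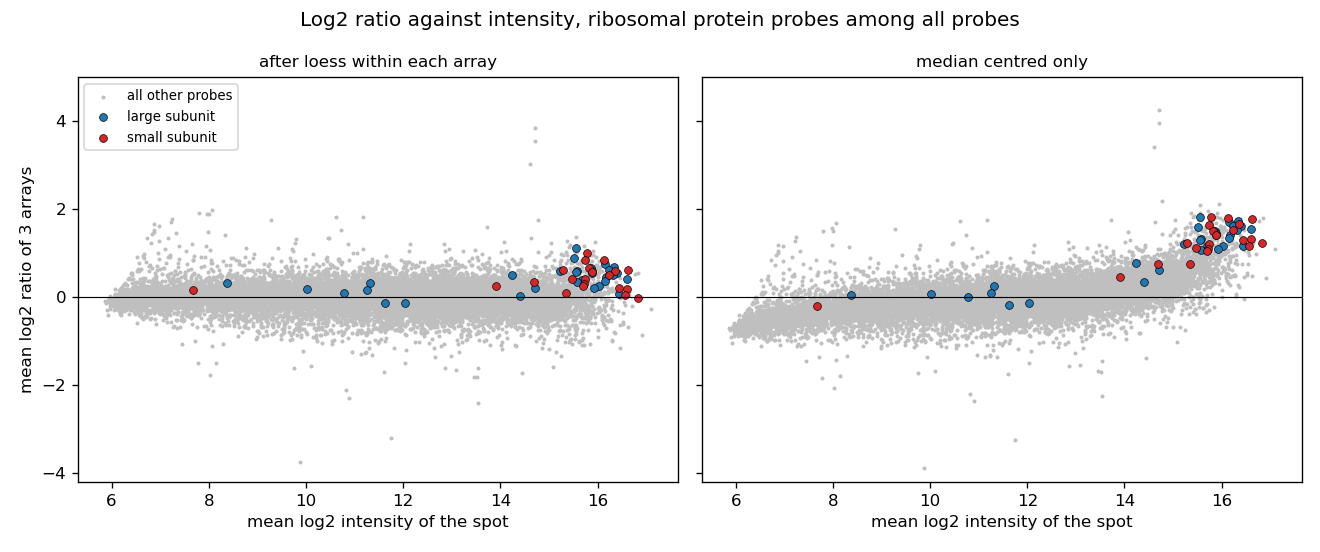
Mean log2 ratio of 3 arrays (y axis) against the mean log2 intensity of the spot (x axis) for all probes (grey) and for large (blue) and small (red) subunit probes, marked spots kept, after loess on the left and with median centring only on the right. Ribosomal protein probes crowd at the bright end, in the upper part of the cloud, and with median centring the whole cloud bends upward there.

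**Figure D4:**
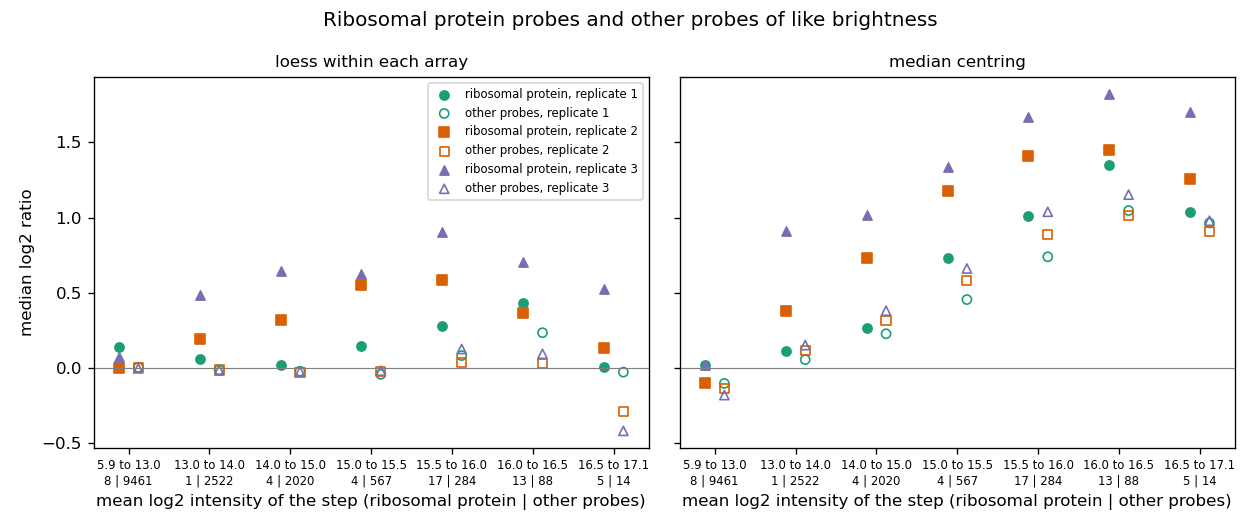
Median log2 ratio (y axis) of ribosomal protein probes (filled) and of all other probes (open) in steps of mean log2 intensity (x axis, with the number of probes of each kind), on each array, after loess on the left and with median centring on the right. Between 15.5 and 16 the filled symbols lie above the open symbol of the same array under both scalings.

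The size of the ratio differed between arrays for many probes at once. Over the 39 ribosomal protein probes of log2 intensity 15 or more, the correlation between arrays was 0.42 for replicates 1 and 2, 0.50 for 1 and 3, and 0.64 for 2 and 3. Over all 52 probes it was -0.05, 0.54 and 0.39, and over all 15008 probes 0.33, 0.19 and 0.37. These are correlations across probes, which share their arrays, dyes and brightness and are not independent. RPS15, which is not among the 39, ran from -1.11 to 1.93.

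There were 11 proteins with more than 1 probe, and near-copies of a probe are shown here because they show how far a spot's reading repeats. Each of these pairs lies on the same sheep record and is shifted by 1 base. The capitals mark the shared run, and probes are written 5′ to 3′ as deposited.
RPL14 A_70_P014681: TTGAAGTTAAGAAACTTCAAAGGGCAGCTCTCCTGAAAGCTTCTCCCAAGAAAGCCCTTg
RPL14 A_70_P014682: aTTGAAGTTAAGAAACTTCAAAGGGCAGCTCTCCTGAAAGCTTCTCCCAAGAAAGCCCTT
RPS26 A_70_P050961: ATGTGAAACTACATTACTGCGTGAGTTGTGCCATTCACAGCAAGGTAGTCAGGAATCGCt
RPS26 A_70_P050962: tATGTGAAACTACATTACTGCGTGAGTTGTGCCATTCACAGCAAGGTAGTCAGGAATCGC
RPS27A A_70_P045151: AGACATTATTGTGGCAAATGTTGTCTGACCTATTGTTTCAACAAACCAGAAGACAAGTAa
RPS27A A_70_P045152: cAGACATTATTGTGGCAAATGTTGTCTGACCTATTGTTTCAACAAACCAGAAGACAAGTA

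RPL10 had such a pair and another probe further along the same record, all holding the 42 bases in capitals.
RPL10 A_70_P029951: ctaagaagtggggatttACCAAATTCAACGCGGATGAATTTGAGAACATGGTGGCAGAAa
RPL10 A_70_P029952: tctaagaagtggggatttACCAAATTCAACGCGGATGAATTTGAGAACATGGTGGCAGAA
RPL10 A_70_P072276: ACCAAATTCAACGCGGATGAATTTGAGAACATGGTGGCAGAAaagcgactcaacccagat

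Although they share 59 of 60 bases, the probes of a pair differed on some arrays. RPL14, a large subunit protein, read 0.37, 0.48 and 0.86 on the first probe and 0.26, 0.41 and -0.04 on the second, with marked spots kept. On replicates 1 and 2 the pair differed by 0.11 and 0.07, and on replicate 3 by 0.90. On replicate 3 the second probe's signal was 185661 in Cy5 and 44732 in Cy3, against 106139 and 18797 for the first, and neither spot was marked.

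RPS26, which sits where messenger RNA leaves the small subunit, read -0.27, 0.14 and 0.25 on one probe, 2 of whose spots were marked, and 0.06, 0.71 and 0.92 on the other. RPS27A, which is made as a fusion with ubiquitin, read -0.08, 0.64 and 0.70 on one probe and -0.12, 0.60 and 0.30 on the other, whose replicate 3 spot was marked, so that the pair read closely alike on replicates 1 and 2. RPL10, one of the last proteins to join the large subunit, read 0.32, 0.58 and 1.07 on A_70_P029951 and -0.04, 0.05 and 0.24 on A_70_P029952, whose spots were marked on replicates 1 and 2. The remaining RPL10 probe, A_70_P072276, read 0.42, 0.49 and 0.90, close to A_70_P029951. Within each of the 4 pairs, the same probe was the lower one on all 3 arrays.

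In all 4 pairs the brighter probe had the lower mean ratio, and the means within a pair differed by 0.44 in the median and by up to 0.57. Among 19 other pairs of the same kind with a log2 intensity of 15 or more, the brighter probe had the lower ratio in 15, and the means differed by 0.12 in the median and by at most 0.28. The pairs were not alike in brightness, since the log2 intensity within a pair differed by 0.47 in the median for the ribosomal proteins and by 0.13 for these 19. Over all 239 pairs of this kind, the median difference on an array was 0.06 and the 95th percentile 0.30, 0.34 and 0.40 on replicates 1, 2 and 3. The differences of RPL10 and RPS26 exceeded that percentile on every array, with 1 of the 2 spots marked on replicates 1 and 2 for RPL10 and on replicates 2 and 3 for RPS26. The part of brightness and of spot quality in these differences was not tested. For RPL14, RPS26, RPS27A and RPL10, the choice between nearly identical probes thus moved the mean by 0.16 to 0.57.

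**Figure D5:**
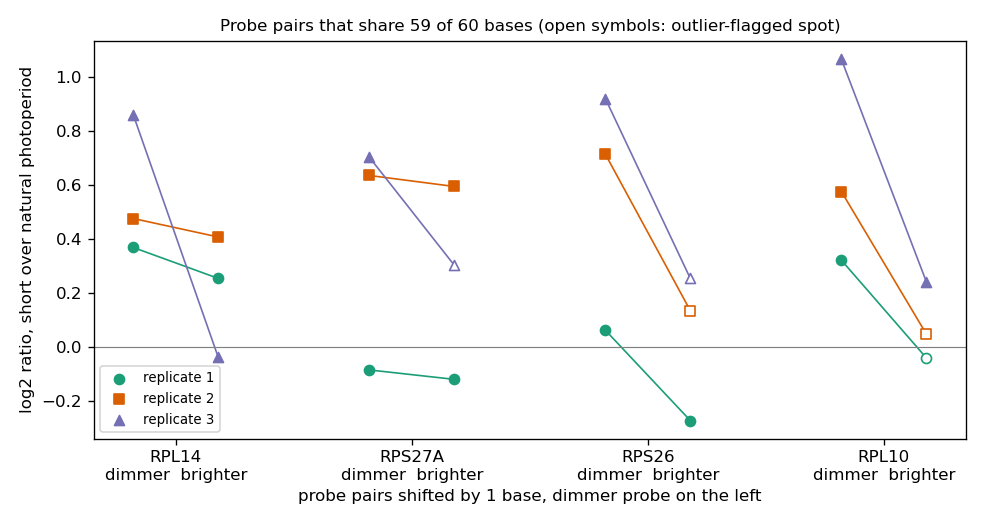
Log2 ratio of short over natural photoperiod (y axis) of the dimmer (left) and the brighter (right) probe of each pair shifted by 1 base (x axis), marked spots kept. Lines join the readings of 1 array, and open symbols are spots marked as outliers. All 12 lines fall from the dimmer to the brighter probe.

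Probes from the end of a message were looked for by the letters AATAAA or ATTAAA, the signal for cleavage and poly(A) addition, on the strand as deposited. Of the 52 probes, 9 held AATAAA and 3 more ATTAAA, 23.1% in all, against 8.07% of all probes. On the opposite strand (TTTATT or TTTAAT) the shares were 3.85% and 6.02%. The stretches of 30 bases below are from probes that held AATAAA or ATTAAA and show the signal letters in capitals.
RPL11 A_70_P024406: atccaaaaggccAATAAAacattttcaatg
RPS16 A_70_P006691: tgtagcacctttatAATAAAtgttgtggga
RPL38 A_70_P058546: tgctttgaactgtATTAAAatttttaaaat

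The 12 probes with either run of letters had a median mean ratio of 0.59 and all lay above 0, from 0.26 (RPL19) to 1.11 (RPL11), with marked spots kept. The 40 others had a median of 0.33 and ran from -0.12 to 0.84. Within the 39 probes of log2 intensity 15 or more, the medians were 0.61 for 11 probes with the letters and 0.51 for 28 without. The highest probes by mean, RPL11, RPS12 (A_70_P003121) and RPL38, held them, and the next, RPS12 (A_70_P016537) with 0.84, did not. Other probes of that brightness showed a difference in the same direction, 0.14 for 124 probes with the letters and -0.04 for 830 without. A match is a description of the probe, and no test of this difference was made.

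Genes around the ribosome were counted in the same fit. Each list had 0 called probes, and every probe that passed an unadjusted p of 0.05 was higher, against 9.11% of all tested probes higher. With so few probes in a list, small counts were not set against that share by a test. Of 4 mitochondrial ribosomal protein probes, whose products translate the messages of mitochondria, 1 passed an unadjusted p of 0.05, with a list median of 0.18. Of 11 probes for translation initiation factors, which bring the ribosome to the start codon, 2 passed, eIF5A with a mean of 0.40 ± 0.06 and eIF5B with 0.35 ± 0.13, and the list median was 0.22. Of 7 probes for elongation and release factors 3 passed, all of EEF1A1, which delivers aminoacyl transfer RNA. These read 0.64, 0.58 and 1.05 on A_70_P012926, 0.47 and 0.56 on A_70_P012927, and 0.24, 0.30 and 0.43 on A_70_P024216. The list median was 0.24. Of 6 ribosome assembly probes 2 passed, nucleophosmin/nucleoplasmin 3, a histone chaperone of the nucleolus (0.66 ± 0.22), and a nucleolin-related protein (0.33 ± 0.13). The former had values on replicates 1 and 2 only. The MYC probes read means of 0.01 and 0.12, and EIF6, which keeps the subunits apart and stands in the initiation and the assembly list, -0.17 ± 0.22.

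Ribosomal protein S6 kinase beta-1, which phosphorylates RPS6, had 1 probe with 0.45, 0.38 and 0.57 on the 3 arrays, a mean of 0.47 ± 0.10, an unadjusted p of 0.0058 and an adjusted p of 0.163 by limma. The laminin receptor RPSA, a small subunit protein that the rule does not find by its description, read -0.04, 0.18 and 0.77, with a mean of 0.31 ± 0.42. The ribosomal proteins had a median of 0.42 and a median log2 intensity of 15.74, against 13.47 to 15.43 for the mitochondrial, initiation, elongation and assembly lists. The part of brightness in the order of the lists was not tested.

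Markers of skin cell types were read in the same fit. Of 32 tested skin epithelium and keratin probes, 16 passed an unadjusted p of 0.05 in the higher direction and 0 in the lower, against 9.11% and 9.35% of all tested probes, with a median of 0.66 and means from -0.73 to 3.86. The highest mean rested on replicates 1 and 2 only. KRT14, a keratin of basal epidermis and the outer root sheath, read 1.25, 0.64 and 0.16, highest on replicate 1, where the ribosomal protein median was lowest. The keratin K27, the only probe found for hair shaft and root sheath, read 0.52, 1.05 and 1.99. It was highest on replicate 3, where the ribosomal protein median was highest. Of 15 leukocyte probes 13 passed in the lower direction, against the same 9.35%, with a median of -0.49, and CD4 was not well above background on any array. Of 5 fibroblast matrix probes 2 passed in the lower direction, both of the collagen COL3A1, with means of -0.60 and -0.62, while COL1A1 stood at -0.41 and the DCN probes at 0.06 and 0.16. The endothelial SELE read -1.03 and -0.66. The blood gene HBB read 0.06, -2.11 and 1.15 and 0.53, -1.96 and 0.96 on its 2 probes. The muscle marker MYLPF read 0.79, 0.38 and 0.26, and the 4 adipose probes had a median of -0.16. Signals were also summed over a list after loess. The skin epithelium and keratin list includes hair keratins and keratin-associated proteins, so its sum is not a measure of epithelium alone. That sum was 1599323 to 1862360 in the short and 1015209 to 1581308 in the natural photoperiod, and that of the leukocyte probes 146560 to 168062 and 216414 to 272575. The summed signal of the ribosomal protein probes was 2967795 to 3551299 and 2233677 to 2487703. The ranges of the groups overlapped for the adipose, blood, fibroblast matrix, skeletal muscle, mitochondrial ribosomal protein, translation initiation factor and ribosomal protein kinase sums. These ranges ignore the pairing within arrays. Within every array the short photoperiod had the higher sum for skeletal muscle, mitochondrial ribosomal proteins, initiation factors and the kinase. The same held for ribosomal proteins and for skin epithelium and keratin, and the reverse for leukocytes. For adipose, blood and fibroblast matrix the direction differed between arrays. Sums were not made over other probe sets, so no background stands beside these ranges. No marker probe of these lists had an adjusted p under 0.05, and the part of cell composition in the ribosomal protein values was not tested.

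The probes are sheep sequences, and 26 of the 52 lie on assembled sheep transcripts, 25 on named sheep records and 1 on an expressed sequence tag. For 36 of the 38 proteins the RefSeq goat gene table (assembly ARS1.2) held the same symbol, and RPL17 and RPL34 were not matched. Ribosomal protein genes have many processed copies in mammalian genomes, so a probe may also read RNA of a copy, and the share of that signal is uncertain.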

How the data were processed

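The deposited files hold, per spot, the intensity of Cy5 and Cy3 and of the local background from Feature Extraction 10.7.3.1, a log10 ratio of processed signals that the authors' software had normalized by lowess, and the authors' value table of log2 ratios. Scanner intensity was used as the main source. In R 4.3.3 with limma 3.58.1 background was corrected by normexp (offset 50), loess was run within each array, spots marked as outliers were left out, spots of a probe were averaged, and probes with at least 2 arrays were tested against 0 by lmFit and eBayes, adjusted over 14977 probes with a threshold of 0.05. The methods' fold rule (2 or 0.5) was applied to the mean. Each array pairs goats of the same parent, as the paper states, so the ratio is a paired measure, and the channels correlated at 0.619 within spots. Slide and scan were 1 each and no block could be fitted. The test was run on simulated data with planted changes larger than any ribosomal protein mean. That check does not show the test's power at the ratios reported here.

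The members and lists were chosen with earlier results of these data known. Named probes were those of proteins listed by role, the 5 highest and 5 lowest by mean among probes well above background, any called or at 2-fold, the 3 brightest and 3 dimmest, and the proteins whose probes differed most. RPL7, RPL14, RPL19, RPL34, RPS16 and RPS23 were named beyond this after their values were seen, and 2 members are counted but not reported by name here. Precision is limited by 3 arrays. Alternatives are given in the closing section. Figures were drawn with matplotlib. The authors' fold changes were not used.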

Additional observations from a re-analysis of the deposited data

How the results depend on the processing

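The counts of calls depended on the scaling. With median centring 31 of 44 probes were called (6.77% of all tested probes higher), 36 passed an unadjusted p of 0.05 (17.2% of all higher and 17.1% lower), 29 were at least 2-fold higher (1.96% of all), the mean of the array medians was 1.22 and the mean slope on intensity 0.24. With marked spots kept as well, a setting chosen after seeing the data, these were 40, 44 and 38 of 52 probes, against 7.01%, 17.2% and 2.1% of all probes higher, and 1.26 and 0.24. The separate channels with a correlation within spots gave 5 calls of 35. Without the pairing (no replicate block, channels as unpaired samples), 0 of 35 were called and 16 passed an unadjusted p of 0.05. The share of all probes is not given for that fit, so its counts are not set against a background. No call was made in the other settings, namely no background correction, the Feature Extraction ratio, the authors' value table, only probes above background, marked spots kept, 1 value per gene identifier, members by gene name only, eBayes with trend and robust, and each array left out. The mean of the array medians was 0.43 to 0.53 in the settings that kept loess or lowess and all arrays.

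With members taken by gene name only (9 tested probes), 5 passed an unadjusted p of 0.05, 0 were at 2-fold and the slope on intensity was -0.14. These counts come from the main fit, where 9.11% of all tested probes passed higher, 9.35% lower, and 0.427% were at least 2-fold higher. Leaving out 1 array gave 0 to 4 probes at 2-fold, with 4 without replicate 1 and 0 without replicate 3, 15 to 22 probes with an unadjusted p under 0.05 (without replicate 2, 14 higher and 1 lower, RPS15), and mean array medians of 0.38 to 0.61. The shares of all probes are not given for the fits with 1 array left out, so those counts have no background beside them. The difference of large and small subunits moved by less than its spread over arrays (0.22) in every setting, from -0.18 to 0.08, and changed sign with the authors' table (0.04), with marked spots kept (0.01), by gene name only (0.08) and without replicate 3 (0.03). RPS15 turned to -0.16 with the Feature Extraction ratio and with the authors' table, to -0.20 with median centring (with and without marked spots) and ran from -0.73 to 0.79 with 1 array left out, below 0 without replicate 2. RPS9 turned to -0.018 with marked spots kept and ran from -0.11 to 0.14 with 1 array left out, below 0 without replicate 3. Of the 25 named probes with a fit, all other values under the alternatives kept their direction. The cause of these shifts was not tested. Matching the probes to RefSeq goat proteins was not run. Dim spots such as RPS15 are limited by signal over background.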
